A study of Homo sapiens with 4 samples.

Results

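ATP5C1 (now also written ATP5F1C, ENSG00000165629) encodes the gamma subunit of the mitochondrial ATP synthase. Its events were taken from the deposited alternative splicing tables by gene symbol, and they number 9 of 121269, with 7 of 84930 skipped exon events and 2 of 27459 events of mutually exclusive exons. No event of the gene was listed among the alternative 3′ splice sites, the alternative 5′ splice sites or the retained introns. The description centres on exon 9, a 37 nt exon at chr10:7848937-7848973 on the plus strand of hg19. Exon 9 was chosen by its PSI in these same libraries, where its inclusion differed between the treatments, so its own values are given as a description and without a test.

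The RNA came from U87MG, a human cell line that the labels describe as likely glioblastoma. Cells were transfected with Lipofectamine and 2.5 µM of either RBFOXi, a decoy RNA oligonucleotide with tandem RBFOX motifs, or SCRM, a scrambled control. There were 2 libraries per treatment, described as independent biological replicates, and all 4 therefore shared the cell line, the transfection reagent and the dose. RBFOXi replicate 1 carried the dye Cy5 on its oligonucleotide according to the labels, while no dye is named for the other 3 libraries. The decoy offers RBFOX proteins a place to bind and does not target their RNA, so the libraries model competition for the proteins and not a knockdown.

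The gamma subunit is the rotating central stalk of the ATP synthase. It is driven by the proton-powered ring in the inner membrane and forces the catalytic beta subunits through their cycle of ATP synthesis. The transcript is known to be spliced in a tissue-dependent way near its end, where muscle and heart leave out the exon that most other tissues keep. RBFOX proteins bind (U)GCAUG in introns. As a textbook rule they favour inclusion of an exon when they bind downstream of it and favour skipping when they bind upstream.

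Exon 9 is the next to last exon of the gene and decides where translation ends. In the GENCODE 44 annotation lifted to hg19, the 10-exon transcript ENST00000356708 has its stop codon inside exon 9, after 298 codons. The 9-exon transcript ENST00000335698 joins exon 8 directly to exon 10 and stops after 297 codons, so the coding sequences of the forms are 894 and 891 nt long. The ends of both coding sequences, shown here because they are the whole coding difference between the forms, are given with the stop codon in capitals.
exon 8 joined to exon 9: ggtgctgcagctctggatTAA
exon 8 joined to exon 10: ggtgctgcagctctgTAA
The included form thus carries 1 more codon, gat, before its stop. Of the 37 nt of exon 9, the last 30 lie behind the stop codon and are 3′ UTR of the included form.

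The introns beside exon 9 are unequal. Intron 8 spans 4119 nt (chr10:7844818-7848936) and intron 9 spans 648 nt (chr10:7848974-7849621). The acceptor and the donor of exon 9 follow, with the conserved dinucleotide in capitals.
acceptor (chr10:7848917-7848939): tcttctaatataataaccAGgga
donor (chr10:7848971-7848979): gagGTaaag
The last 300 nt of intron 8 are shown because they hold the RBFOX motif letters nearest to the exon (hg19, plus strand, chr10:7848637-7848936). The capitals mark TGCATG and, where the leading T is missing, GCATG.
intron 8, last 300 nt: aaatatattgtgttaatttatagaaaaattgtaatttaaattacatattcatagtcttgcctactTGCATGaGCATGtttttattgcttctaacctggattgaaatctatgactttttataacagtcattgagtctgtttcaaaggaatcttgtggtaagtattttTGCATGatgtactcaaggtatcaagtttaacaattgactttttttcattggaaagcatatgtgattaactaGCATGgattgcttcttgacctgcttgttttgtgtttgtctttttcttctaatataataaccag
The letters UGCAUG and GCAUG were searched on the strand of the gene, and each UGCAUG also counts as a GCAUG. The 300 nt hold 2 copies of UGCAUG, which begin 235 and 134 nt before the first base of the exon. A further 2 copies of GCAUG without the leading U begin 228 and 63 nt before it, which makes 4 copies of GCAUG. The whole of intron 8 holds 9 copies of GCAUG, 4 of them UGCAUG, and intron 9 holds 0 of either.

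**Figure D1:**
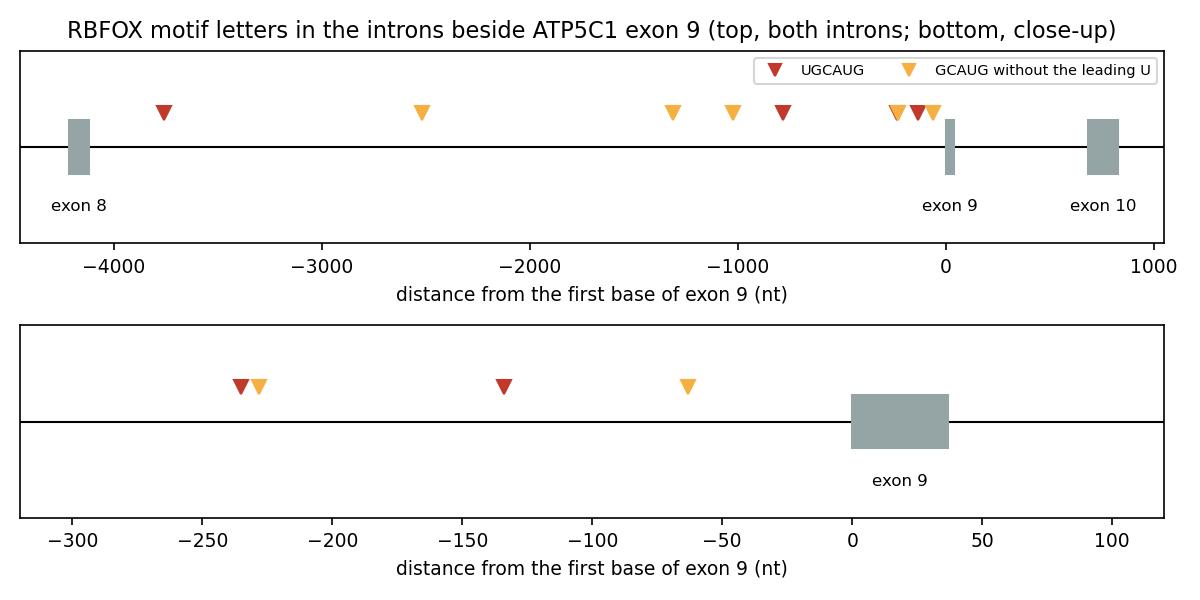
Position of UGCAUG (red) and of GCAUG without the leading U (orange) beside ATP5C1 exon 9; the x axis is the distance in nt from the first base of exon 9 and the grey boxes are exons. The 9 copies all lie upstream of the exon, and the lower panel shows the 4 within 300 nt.

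Among the 30617 distinct exons with a tested skipped exon event, 8.16% hold at least 1 UGCAUG in the last 300 nt upstream and 0.637% hold 2 or more. At least 4 copies of GCAUG in that window were found beside 26 exons (0.0849%), ATP5C1 exon 9 included. In the first 300 nt downstream, where exon 9 has none, 8.36% of the exons hold UGCAUG and 24.1% hold GCAUG. A match of letters is a description and does not show that a protein was bound.

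In RBFOXi replicates 1 and 2, the skipped exon event of exon 9 had 729 and 722 counts of inclusion and 51 and 47 counts of skipping. In SCRM replicates 1 and 2 it had 1093 and 537 counts of inclusion and 696 and 200 counts of skipping. A count is 1 read aligned to a junction or to the alternative region, and the proportion spliced in (PSI) divides each form's counts by its effective length, 60 nt for inclusion and 86 nt for skipping. The PSI of exon 9 was 0.953 and 0.957 in the RBFOXi libraries and 0.692 and 0.794 in the SCRM libraries. Both RBFOXi libraries thus lay above both SCRM libraries, with almost complete inclusion, and the SCRM libraries were further apart from each other than the RBFOXi libraries. The RBFOXi mean was 0.955 ± 0.00219 (SD, n = 2) and the SCRM mean was 0.743 ± 0.0717 (SD, n = 2), a difference (delta PSI) of 0.212.

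The direction was the same without division by length. Inclusion reads made up 93.5% (95% Wilson interval 91.5 to 94.99%) and 93.9% (92.0 to 95.4%) of the counts in RBFOXi replicates 1 and 2. In SCRM replicates 1 and 2 they made up 61.1% (58.8 to 63.3%) and 72.9% (69.5 to 75.9%). The intervals cover counting error only, since sequenced fragments are not independent molecules, and the gap between the SCRM replicates exceeds them. A limma fit to log2 odds covered 39615 skipped exon events. At an adjusted p-value under 0.05 and a shift of at least 0.1 in PSI, 27 of them (0.0682%) were called, and exon 9 was 1 of these. Since this contrast chose the exon, nothing is read from its call, which was lost when either SCRM library was left out and held when either RBFOXi library was left out. With all 4 libraries kept, the call was also lost with a pseudocount of 0.1 in the log2 odds and without the variance trend of the fit. RBFOXi was above SCRM in all its libraries for 14.3% of tested skipped exon events.

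The events of the gene overlap, and this allowed the counts to be split into single junctions. Reads on the junction of exons 9 and 10 appear alone in the event that treats exons 8 and 9 as mutually exclusive, once the reads joining exon 7 to exon 9 (1, 0, 0 and 0) are taken off. The split left a residual of 0 counts in all 4 libraries when it was checked against the skipped exon event of exon 8. The junction of exons 8 and 9 had 356 and 351 reads with RBFOXi and 419 and 243 reads with SCRM. The junction of exons 9 and 10 had 373 and 371 reads with RBFOXi and 674 and 294 reads with SCRM. The skipping junction, from exon 8 to exon 10, had 51 and 47 reads against 696 and 200. In raw reads, the including junctions of the RBFOXi libraries thus lay between those of the SCRM libraries. The skipping junction did not overlap between the groups. Its raw reads, not scaled to exon 8, were 3.92 to 14.8 times as frequent in a SCRM library as in an RBFOXi library.

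**Figure D2:**
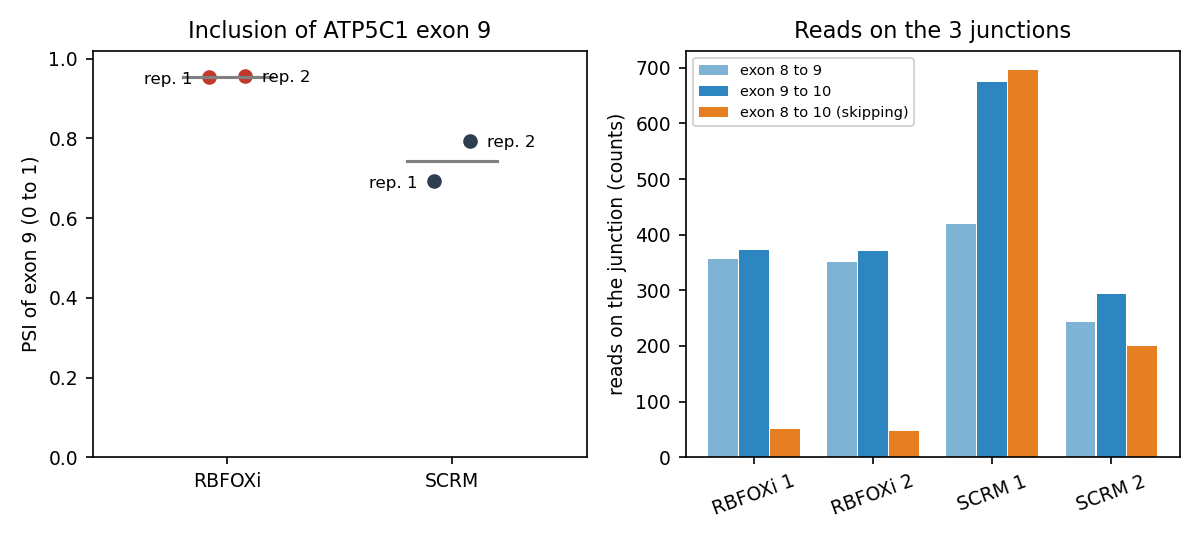
Left, PSI of ATP5C1 exon 9 (y axis, 0 to 1) in each library, with the mean of each treatment as a grey line; right, reads (counts) on the junctions of exons 8 and 9, of exons 9 and 10 and of exons 8 and 10. The skipping junction has 51 and 47 reads with RBFOXi and 696 and 200 reads with SCRM.

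At the donor of exon 8, a spliced read either joins exon 9 or exon 10. The join to exon 9 made up 87.5% (95% Wilson interval 83.9 to 90.3%) and 88.2% (84.6 to 91.0%) of these reads with RBFOXi. With SCRM it made up 37.6% (34.8 to 40.5%) and 54.9% (50.2 to 59.4%). These shares use raw reads, and the difference of their means is 41.6 percentage points. They stand below the PSI because the counting gave each junction of exon 9 an effective length of 30 nt and the skipping junction one of 86 nt. With the lengths applied, the PSI from the upstream junction alone was 0.952 and 0.955 with RBFOXi and 0.633 and 0.777 with SCRM. From the downstream junction alone it was 0.954 and 0.958 with RBFOXi and 0.735 and 0.808 with SCRM. Both junctions therefore put the RBFOXi libraries above the SCRM libraries, and in SCRM replicate 1 the junctions were further apart from each other than in the other libraries.

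The lengths can be checked against exon 8, whose reads should leave it by one junction or the other. Reads on exon 8 and its upstream junction came to 1412 and 1238 with RBFOXi and to 2512 and 1133 with SCRM, over an effective length of 86 nt. Per nt of effective length, the junctions leaving exon 8 together carried 0.759, 0.851, 0.755 and 0.791 of the density on exon 8 in RBFOXi 1, RBFOXi 2, SCRM 1 and SCRM 2. Without lengths, the same ratio was 0.288 and 0.321 with RBFOXi and 0.444 and 0.391 with SCRM. The balance was thus more even across libraries with the lengths than without them. On the length-corrected scale, skipping carried 3.61% and 3.796% of the density of exon 8 with RBFOXi and 27.7% and 17.7% with SCRM. The mean of the SCRM libraries was 6.12 times that of the RBFOXi libraries, and 4.65 to 7.67 times over the 4 pairs of libraries. On the same scale, the junction of exons 8 and 9 carried 72.3% and 81.3% with RBFOXi and 47.8% and 61.5% with SCRM. Scaled in this way, inclusion did not overlap between the groups either.

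The second event that holds exon 9 pits it against exon 8 as if the exons excluded each other. Its form with exon 8 had a PSI of 0.577 and 0.547 with RBFOXi and 0.624 and 0.613 with SCRM, a difference of -0.0563. In this event the reads that join exon 8 to exon 10 are added to all other reads on exon 8, and exon 8 itself was hardly ever skipped. The skipped exon event of exon 8 (chr10:7844721-7844817) had 1768, 1589, 2931 and 1376 counts of inclusion in RBFOXi 1, RBFOXi 2, SCRM 1 and SCRM 2. Its skipping had 1, 0, 0 and 0 counts. A count of 0 allows up to 0.189%, 0.102% and 0.218% of the raw counts in the last 3 of these libraries. On the PSI scale these bounds are higher, since the effective length is 30 nt for skipping and 116 nt for inclusion. The event did not reach the 4 counts of each form that the test required.

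SCRM replicate 1 stood apart from the other libraries. Over 4250 genes with at least 3 tested exons, the ratio of counts on the last to those on the first of these exons was highest in SCRM replicate 1 for 87.8% of genes. The median log2 ratio, set against the mean of the 4 libraries, was 0.58 there, -0.14 and -0.15 in the RBFOXi libraries and -0.30 in SCRM replicate 2. ATP5C1 followed the same pattern: counts of exon 8 relative to exon 2 were 0.676 and 0.604 with RBFOXi, 1.34 in SCRM replicate 1 and 0.521 in SCRM replicate 2. Relative to the mean of the RBFOXi libraries, counts in SCRM replicate 1 were 0.908 at exon 2, 0.991 at exon 3, 1.39 at exon 5 and 1.90 at exon 8. The same ratios in SCRM replicate 2 were 1.05, 0.988, 0.961 and 0.855.

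The junction of exons 8 and 9 stood at 1.19 in SCRM replicate 1 and 0.687 in SCRM replicate 2 on this scale, and the junction of exons 9 and 10 at 1.81 and 0.790. Without SCRM replicate 1, the delta PSI of exon 9 was 0.161, and without SCRM replicate 2 it was 0.263. The part of this 3′ excess of counts in the PSI of SCRM replicate 1 was not tested.

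**Figure D3:**
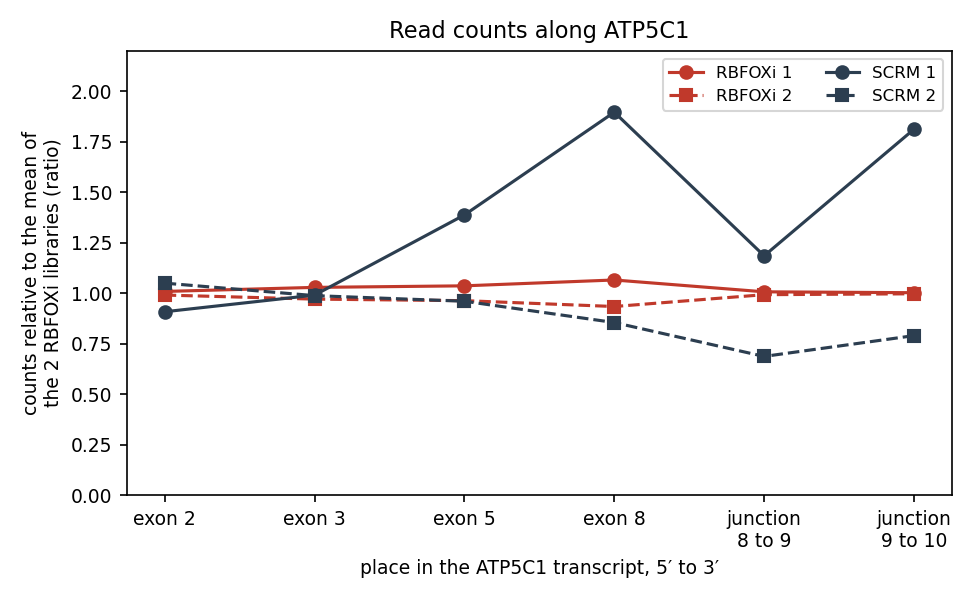
Counts along ATP5C1 in each library, divided by the mean of the RBFOXi libraries (y axis, ratio), at exons 2, 3, 5 and 8 and at the junctions of exon 9 in transcript order. SCRM replicate 1 climbs from 0.908 at exon 2 to 1.90 at exon 8, while SCRM replicate 2 falls from 1.05 to 0.855.

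A processed pseudogene, ATP5F1CP1 (chr14:54457819-54458713, minus strand), carries a copy of the included form. Over 40 nt centred on each junction it differs from ATP5C1 by at least 2 nt at the junction of exons 8 and 9 and by at least 1 nt at that of exons 9 and 10, but by at least 15 nt at that of exons 8 and 10. Reads were kept only where they aligned uniquely, so a part of the inclusion reads may have been lost or gained there and the level of PSI is uncertain by that amount. The sequence is the same for all 4 libraries.

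The other ATP5C1 exons with a skipped exon event, exons 2, 3, 5 and 8, had a PSI of at least 0.979 in all libraries. Of the 7 skipped exon events, 5 passed the filter, and the 4 without exon 9 gave no call. Exon 2 (chr10:7838084-7838118, 35 nt), tested between exons 1 and 3, had a PSI of 0.986 and 0.979 with RBFOXi and 0.988 and 0.985 with SCRM. The groups overlapped, and the log2 odds of inclusion differed by -0.32 (SE 0.41, limma adjusted p = 1.00). The same exon between exons 1 and 4 had a PSI of 0.990 and 0.989 with RBFOXi and 0.991 and 0.991 with SCRM, a change of -0.22 in log2 odds (SE 0.57, limma adjusted p = 1.00). Exon 3 (chr10:7839010-7839141, 132 nt) between exons 1 and 4 had a PSI of 0.991 and 0.990 with RBFOXi and 0.992 and 0.992 with SCRM, a change of -0.23 (SE 0.57, limma adjusted p = 1.00). These last 2 events share their skipping reads, the junction of exons 1 and 4, with 15 and 16 counts in the RBFOXi libraries and 13 and 13 in the SCRM libraries. Both had lower PSI in every RBFOXi library, as did 16.5% of tested skipped exon events, and their delta PSI was -0.00153 and -0.00140.

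Exon 5 (chr10:7841735-7841878, 144 nt) had a PSI of 0.986 and 0.987 with RBFOXi and 0.985 and 0.992 with SCRM. It rested on 15 and 13 against 21 and 8 counts of skipping, and the log2 odds differed by -0.31 (SE 0.59, limma adjusted p = 1.00). Exon 3 between exons 2 and 4 had 5198, 4905, 5004 and 4992 counts of inclusion in RBFOXi 1, RBFOXi 2, SCRM 1 and SCRM 2, and 0, 0, 1 and 1 counts of skipping. That event was below the filter on skipping counts. There 0 counts allow up to 0.0577% and 0.0612% of the raw counts in the RBFOXi libraries. On the PSI scale these bounds are higher as well, with effective lengths of 28 nt for skipping and 146 nt for inclusion. The mutually exclusive event of exons 2 and 3 had a PSI for exon 2 of 0.457 and 0.467 with RBFOXi and 0.443 and 0.477 with SCRM. Its groups overlapped and its log2 odds differed by 0.01 (SE 0.16, limma adjusted p = 1.00). None (0%) of the 26176 tested mutually exclusive events was called with limma, while 395 had an unadjusted p-value under 0.05. A p-value that misses the threshold does not show that the inclusion of these exons was equal.

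The amount of ATP5C1 RNA was read from its best covered event, that of exon 3, which does not touch exon 9. Inclusion and skipping together came to 5198 and 4905 counts with RBFOXi and 5005 and 4993 counts with SCRM. At exon 3 the counts lay close together in all libraries, before any scaling. At exon 8 they did not, with 2512 reads in SCRM replicate 1 against 1133 to 1412 in the other libraries. Scaled by library totals, a choice made after seeing the data, the log2 difference at exon 3 was 0.00517 (SE 0.30). After median-of-ratios scaling the log2 difference was -0.26 (SE 0.44, limma adjusted p = 0.999), and without SCRM replicate 1 it was 0.16 (SE 0.25, limma adjusted p = 0.969). Without SCRM replicate 2 it was -0.64 (SE 0.27, limma adjusted p = 0.0903), so its sign depended on which SCRM library was kept. In bulk RNA, fewer cells of a type and less RNA per cell cannot be told apart. Of 11038 genes tested in this way, 0 (0%) were called with limma, with 9 at an unadjusted p-value under 0.05, whereas 4233 were called when SCRM replicate 2 was left out.

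The list of ATP synthase genes held 22 genes, of which 18 had a tested coverage. It covers the catalytic head, the stalks, the membrane part, the inhibitor ATPIF1 and the assembly factors ATPAF1, ATPAF2 and TMEM70. The event coverage of 0 of the 18 genes was called. Their log2 differences ran from -0.66 to -0.08 with a median of -0.52, against a median of -0.00468 over all genes. In 15 of the 18 the count divided by the library total was highest in SCRM replicate 1. That scaling is not the median-of-ratios scaling of the differences given here. Without that library the differences ran from -0.10 to 0.38 with a median of 0.14, and the lowest limma adjusted p was 0.967. With SCRM replicate 2 left out instead, SCRM replicate 1 was the only control. The differences then ran from -1.49 (ATP5I) to -0.13 (ATPAF1), against a median of -0.0179 over all genes. ATP5B, the catalytic beta subunit, had 24553 and 28126 counts with RBFOXi and 40585 and 26529 with SCRM. ATP5F1, a subunit of the peripheral stalk, had 17565 and 20373 counts with RBFOXi and 21488 and 19302 with SCRM. ATP5G3, a source of the membrane ring subunit c, had 13964 and 14587 counts with RBFOXi and 20993 and 15231 with SCRM. In all 3 the counts of SCRM replicate 1 were the highest.

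The splicing of the other ATP synthase genes gave no call. Of 63 tested skipped exon events in 17 genes of the list, ATP5C1 set apart, limma called 0, and 2 reached p-values under 0.05 before adjustment. Their delta PSI ran from -0.154 to 0.0510, and the median absolute delta PSI was 0.000855, against 0.00803 over all tested skipped exon events. Of these 63 events, 6 had a mean PSI between 0.1 and 0.9, so that most listed exons were close to full inclusion or full skipping. The extreme of -0.154 was an exon of C14orf2, which encodes a small membrane subunit, and it rested on 19, 49, 54 and 33 counts (limma adjusted p = 1.00). None of the 28 tested mutually exclusive events, 2 alternative 3′ splice site events, 17 alternative 5′ splice site events and 4 retained intron events of the list was called (0 of each with limma, with 0, 0, 1 and 0 at an unadjusted p-value under 0.05). Over all genes, limma called 0% of events of each of these types.

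Exon 9 is one of 2269 tested exons with UGCAUG in the last 300 nt upstream and none in the first 300 nt downstream. The other 2268 exons of this kind are described beside all 30617 tested exons, since the choice of exon 9 did not use them. Of the 2268, 3 were called with higher and 1 with lower inclusion after RBFOXi, or 0.132% and 0.0441%, against 0.0163% and 0.0621% of all tested exons. RBFOXi lay above SCRM in every library for 347 of them (15.3%) and below for 374 (16.5%), where all tested exons gave 14.05% and 16.9%. Their median delta PSI was 0.000153, against -0.000133 over all tested exons, and the median change in log2 odds was 0.09 against 0.05. The non-overlapping shares and the medians were near the background. The share called higher was above it, but it rested on 3 exons with limma adjusted p-values of 0.0289 to 0.0498. Over all skipped exon events, 0 were called higher and 1 lower with a pseudocount of 0.1 in the log2 odds. Without the variance trend of the fit, 0 were called in either direction. A delta PSI of at least 0.1 was found in 3.17% of them and in 2.22% of all exons. Falls of that size were not counted.

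**Figure D4:**
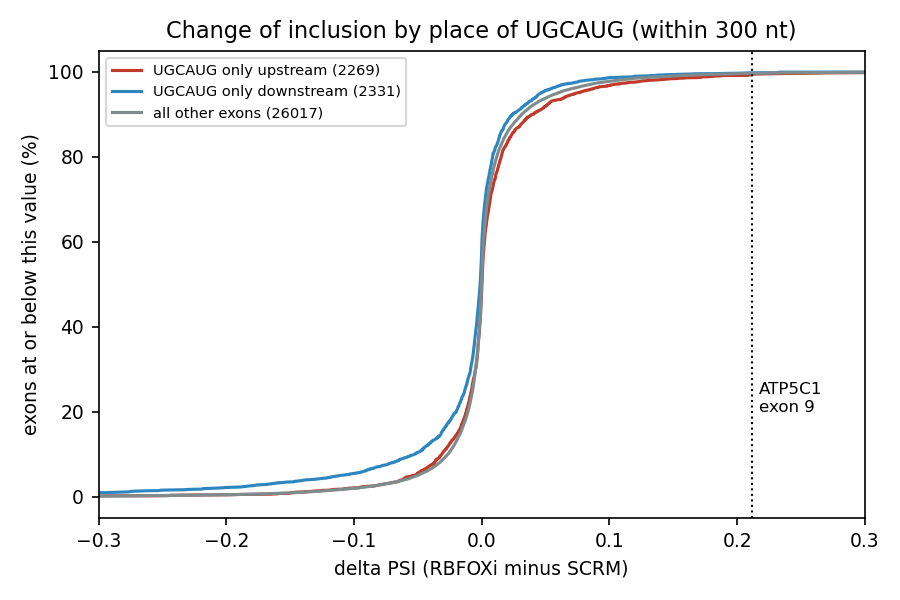
Cumulative share of tested exons (y axis, %) by delta PSI (x axis, RBFOXi minus SCRM, shown from -0.3 to 0.3), for 2269 exons with UGCAUG only upstream, 2331 with it only downstream and all others. The dotted line marks ATP5C1 exon 9 at 0.212, and the curve of exons with downstream UGCAUG lies to the left of the others below 0.

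Several copies upstream were rare. In the 174 exons besides exon 9 with 2 or more UGCAUG upstream and none downstream, 2 (1.15%) were called higher and 0 lower. Over all tested exons, 0.0163% were called higher and 0.0621% lower. A delta PSI of at least 0.1 was found in 6.32% of the 174, against 2.22% of all tested exons. Falls of that size were not counted. Of the 174, 35 (20.1%) had RBFOXi above SCRM in every library and 29 (16.7%) below, against 14.05% and 16.9% of all tested exons. The median change in log2 odds of the 174 was 0.08, against 0.05 over all tested exons. A further 25 exons besides exon 9 had at least 4 GCAUG upstream, here with no condition on the downstream intron. Of these 25, 0 were called in either direction in limma. RBFOXi lay above SCRM in every library for 6 of these 25 (24.0%) and below for 7 (28.0%). All tested exons gave 14.05% and 16.9%. The median change in log2 odds of the 25 was -0.34, against 0.05 over all tested exons. The 2331 exons with UGCAUG only downstream gave 0 higher and 14 lower calls (0.601% lower, against 0.0621% of all tested exons). Their median change in log2 odds was -0.10.

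The called exons with upstream UGCAUG were those of PBRM1, CADPS, ADD3, PLOD2 and ATP5C1 itself. The exon of PBRM1, a chromatin remodelling subunit, lies at chr3:52588740-52588895, has 3 copies of UGCAUG in the window and had a PSI of 0.557 and 0.663 with RBFOXi and 0.237 and 0.167 with SCRM. The exon of CADPS, a factor that primes secretory vesicles, lies at chr3:62516329-62516487, has 2 copies and had a PSI of 0.338 and 0.310 against 0.0327 and 0.0784. The exon of ADD3, an adducin of the membrane skeleton, lies at chr10:111892063-111892158, has 1 copy and had a PSI of 0.207 and 0.318 against 0.0435 and 0.0528. These 3 exons were mostly skipped in the SCRM libraries, whereas exon 9 of ATP5C1 was mostly included there. PLOD2, a lysyl hydroxylase of collagen, went the other way: its exon at chr3:145795649-145795711 has 1 copy and had a PSI of 0.724 and 0.659 with RBFOXi and 0.947 and 0.924 with SCRM.

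The exons of other genes whose PSI was most like that of exon 9, by the mean absolute difference over the 4 libraries, were in GIN1 (0.0176), PKD1 (0.0186), GUSBP11 (0.0189), FAM188A (0.0200) and GMIP (0.0205). Their PSI ran from 0.914 to 1.00 with RBFOXi and from 0.673 to 0.831 with SCRM; the closeness of these values follows from how the exons were picked. The number of counts set them apart from exon 9: they rested on 16 to 413 counts per library, against 737 to 1789 for exon 9, and none was called (limma adjusted p = 1.00 in each). UGCAUG within 300 nt upstream was present beside 1 of the 5, in GUSBP11.

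Of the RBFOX genes, RBFOX2 was the one with skipped exon events, while RBFOX1 and RBFOX3 had none in the table. The best covered RBFOX2 event had 1335 and 1602 counts with RBFOXi, and 351 and 2392 with SCRM. The RBFOXi libraries lay between the SCRM libraries, and the log2 difference was 0.40 (SE 0.71, limma adjusted p = 0.999), or -0.57 (SE 0.25, limma adjusted p = 0.967) without SCRM replicate 1. Without SCRM replicate 2 it was 1.41 (SE 0.26, limma adjusted p = 0.00511) and was called, so the sign rested on a single SCRM library. The glial and mesenchymal markers of the cell line had events for 6 of 8 genes, with sums of 316854 to 369530 counts per library, while GFAP and S100B had none. These sums were carried by VIM and FN1, joined by TNC outside SCRM replicate 1. The 6 markers moved in different directions in SCRM replicate 1. VIM had 185009 counts there against 128266 to 174080 in the other libraries, and FN1 had 104262 against 76664 to 104774. TNC had 8394 counts there against 60036 to 101713, and CD44 had 18796 against 28803 to 34169. SLC1A3 had 214 counts there against 1261 to 1569, and NES had 179 against 270 to 432. Of 9 markers of other cell types, KRT8 was the one with an event, at 153 to 247 counts per library. The part of the marker differences in the results above was not tested.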

How the data were processed

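The authors aligned 100 bp paired-end reads uniquely to hg19 with STAR 2.4.2a, per the labels and the study's methods, and counted them per splicing event with rMATS and the UCSC known genes. The deposited values used were counts of inclusion and skipping reads per library, not normalized, with both effective lengths. The p-values, FDR, PSI and inclusion level differences in the deposited tables are the authors' own results and were not used.

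Counts over skipped exon events summed to 114415530 to 136097319 per library, with reads counted in each event they fit. The intervals cover counting error only. Events were tested where each library had 5 or more counts, the mean was 20 or more and each form had 4 or more. limma 3.58.1 (R 4.3.3) was fitted to the log2 odds with a pseudocount of 0.5, the treatment alone in the design, a variance trend over event information, and Benjamini-Hochberg adjustment within each event type. Coverage per gene was the best covered skipped exon event with at least 10 counts in 2 libraries. It was tested with limma on log2 counts scaled to the library by median of ratios, in place of the negative binomial model planned. Each deposited cell joins the counts of 2 libraries and was split into counts per library before any fit. Both fits were also run on simulated data, in which all libraries had the same added spread. These simulations added no shift particular to 1 library, such as that of SCRM replicate 1. Motifs were read from the GRCh37 genome and exons from GENCODE 44. The scripts ran in Python 3.11.15 with pandas 2.3.3 and numpy 2.4.6, intervals came from scipy 1.17.1 and plots from matplotlib 3.10.9.

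The exon, the gene lists and the tests were chosen with earlier results of these data known. The genes named were all ATP5C1 events, the 3 listed ATP synthase genes with most counts, any listed gene that was called, the RBFOX genes, the 5 exons most like exon 9 and the called exons with upstream UGCAUG. C14orf2 was named after its values were seen. The cell type markers, TNC among them, were named from their list. Alternatives covered the pseudocount, the filters, the variance trend, the scaling, the replicate number as a block, the windows and each library left out.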

Additional observations from a re-analysis of the deposited data

How the results depend on the processing

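The rise in exon 9 inclusion kept its direction in every alternative run. The exon was chosen for this rise in these same libraries, so the direction is a description and no support. Since both RBFOXi libraries lay above both SCRM libraries, leaving 1 library out could not have reversed it. Its delta PSI ranged from 0.161 to 0.263 with 1 library left out and was 0.267 with the plain share of counts. It was 0.0563 in the event against exon 8, which adds the exon 8 to 10 reads to all reads of exon 8, and 0.416 with raw junction reads at the donor of exon 8, chosen after seeing the data. The 27 skipped exon calls became 1 with a pseudocount of 0.1, 44 with a filter of 1 count, 0 without the variance trend (also chosen after seeing the data) and 1 to 69 with 1 library left out, lowest without SCRM replicate 2 (2 without SCRM replicate 1). Exon 9 was called in 6 of these 10 alternatives. It was not called with a pseudocount of 0.1, without the variance trend or with either SCRM library left out. Mutually exclusive calls rose from 0 to 2 with a pseudocount of 1 and to 4 to 1400 with 1 library left out. Calls of alternative 3′ splice sites were 0 to 12 and of alternative 5′ splice sites 0 to 5 with 1 library left out. The ATP synthase list gave 0 to 1 event calls and 0 to 14 coverage calls with 1 library left out, and all genes 0 to 4233, each highest without SCRM replicate 2. The called event was a mutually exclusive one of ATP5F1. A fit that leaves 1 library in a group assumes that it varies like the other group.

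With the replicate number as a block, 119 skipped exon and 77 mutually exclusive events were called. The deviations of same-numbered libraries correlated at 0.0944 over skipped exon events. The sample titles of both treatments carry D_R for replicate 1 and P for replicate 2. Nothing in the labels says what a number or a title part shares. No other call changed under the block. Scaling by library totals, chosen after seeing the data, moved the median of all genes to 0.26 (log2) and gave 0 calls. The window of 100 nt held 0 and that of 200 nt 1 UGCAUG. The median delta PSI of exons with upstream UGCAUG (0.000158, exon 9 included) was 9.79e-05 with 200 nt, -0.000140 with 500 nt and 4.44e-08 with GCAUG. It was -0.000437 without SCRM replicate 1 and up to 0.000450 without RBFOXi replicate 2, so its sign is not settled. The cause of these shifts was not tested. The negative binomial alternatives were not run. With 2 libraries per group, small changes were not detectable.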
